A study of Rattus norvegicus with 8 samples.

Results

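The genes described here build ribosomes or unwind RNA. They were chosen by a rule on symbols, among probe sets of Affymetrix rat arrays that carry 1 gene symbol. The rule was set with earlier results of these data known. Symbols that begin with Utp, Nop, Nol, Rrp or Ddx before a digit were taken, with Nolc1, the Polr1 subunits, Rrs1, Nip7, Bop1, Fbl and Ncl. This gave 80 genes of 11217 on the table, read by 107 probe sets, and each gene is given by its brightest probe set, averaged over the 8 arrays. Of the 80, 32 carry a Ddx symbol and 48 do not. Npm1 was also sought, but its 3 probe sets carry a pseudogene symbol as well, so it is not described here.

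Lung RNA came from male Sprague-Dawley rats of 340 to 400 g. It was taken from the dorsal-caudal quadrant, as whole tissue. Rats of the 2 ventilated groups were anesthetized, given a tracheotomy and a jugular cannula, and ventilated for up to 3 hours at 18 mL per kg tidal volume, 40 breaths per minute and 0 cmH2O end-expiratory pressure. They lay prone (3 rats) or supine (3 rats). The condition label and the protocol give both positions this high tidal volume, but the titles read HVt for prone and SVt for supine samples, and SVt is not explained; if the volumes differed, supine against prone would not compare position alone. The 2 control rats were not ventilated. In the comparisons with controls, the effects of high tidal volume, of surgery and of ventilation itself cannot be told apart. The study asked how injurious ventilation acts on lung regions, and both body positions were compared in 1 region here.

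Ribosome production begins in the nucleolus, where RNA polymerase I transcribes the precursor of the large ribosomal RNAs. Small nucleolar ribonucleoproteins (snoRNPs) modify that precursor, and a large assembly called the small subunit processome, together with factors for the large subunit, cuts and folds it around ribosomal proteins. DEAD-box helicases (Ddx genes) remodel RNA with ATP; some work in the nucleolus, others in splicing, mRNA export, decay or translation. In most cells this programme follows growth signals, and the transcription factor MYC is a known activator of it.

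All values below are GCRMA summaries on the log2 scale, where a difference of 1 is a doubling. The median over all probe sets ran from 7.77 to 7.95 across arrays. On supine replicate 3 the 3′ and 5′ beta-actin probe sets differed by 9.10, a gap that widens as RNA breaks down, against 3.16 to 4.64 on the other arrays. The same gap for GAPDH was 8.41 on supine replicate 3, 1.92 on supine replicate 1 and 1.17 on prone replicate 1. On the other arrays it ran from 0.70 to 1.06. The lung markers were at high levels, with a mean of 13.86 to 13.96 over 8 alveolar type 2 genes in the controls and 13.07 to 13.81 in the ventilated lungs. The tissue is a mixture of cells, so fewer cells of a type and less RNA per cell cannot be told apart. Of the 80 genes, 78 reached log2 5 on at least 2 arrays and were tested; Ddx25 and Utp11 did not.

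No member passed a Benjamini-Hochberg adjusted p of 0.05 over all 16896 probe sets tested with limma, in any comparison, where 0.0533% of probe sets passed in prone and in supine lungs against controls, 0.142% in all ventilated lungs against controls and 0% in supine against prone. The closest was Utp20 in all ventilated lungs against controls (adjusted p = 0.0802). Most members stood above both controls on prone replicate 1 and on each supine array, but not on prone replicates 2 and 3. Taking the median over the 78 members of each array's distance from the control mean, prone replicates 1 to 3 lay at 0.84, -0.01 and -0.07, and supine replicates 1 to 3 at 1.16, 0.16 and 0.91. Over all probe sets the same medians ran from -0.14 to 0.01. Thus prone replicate 1 and supine replicates 1 and 3 were high, while prone replicates 2 and 3 and supine replicate 2 lay near the controls. The spread between rats of 1 position was wider than the distance between positions.

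**Figure D1:**
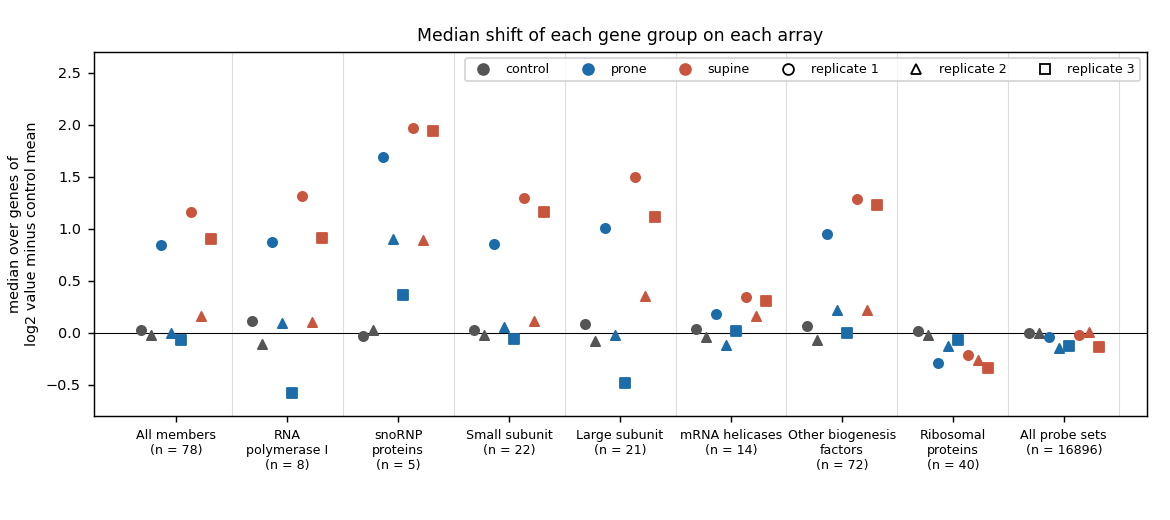
Median over the genes of each group of the log2 value minus the control mean (vertical axis), for each array; colours are the groups, symbols the replicate numbers, and n counts tested genes. The snoRNP proteins stand highest, at 1.97 on supine replicate 1, and the median over all members is 1.16 on that array, while ribosomal protein genes lie below 0 on all 6 ventilated arrays.

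On single arrays, 65 of the 78 members exceeded both controls on prone replicate 1, 68 on supine replicate 1 and 62 on supine replicate 3, where 42.8%, 44.4% and 41.0% of all probe sets did so. On prone replicates 2 and 3 the counts were 31 and 28, near the 38.3% and 38.8% of all probe sets, and on supine replicate 2 the count was 46 (43.0% of all probe sets). Supine replicate 1 held the highest of the 8 values for 41 members and supine replicate 3 for 24, against 19.4% and 16.3% of all probe sets. Prone replicate 1 was the highest prone array for 63 members (80.8%, against 43.8% of all probe sets), and supine replicate 2 the lowest supine array for 59 (75.6%, against 29.5%). The order of the rats was thus shared by most of the genes. Prone replicate 1 and supine replicates 1 and 3, where the members were high, also had the widest GAPDH gaps. The part of RNA quality in this order was not tested.

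**Figure D2:**
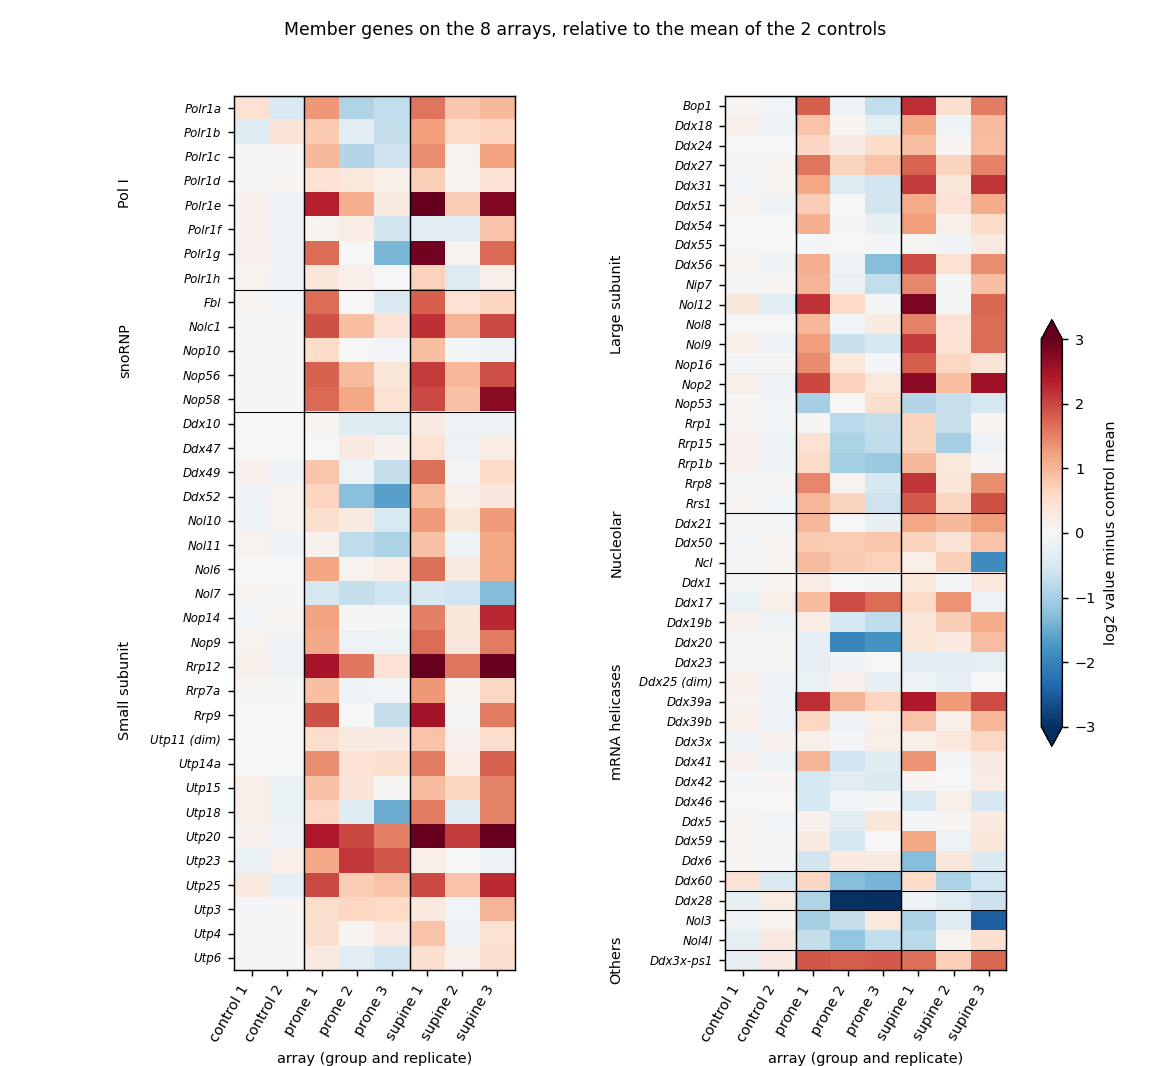
Log2 value minus the control mean of each of the 80 member genes (rows, grouped by role) on each of the 8 arrays (columns); colours end at 3 and -3, and genes marked dim were not tested. Red columns run through most nucleolar genes on prone replicate 1, supine replicate 1 and supine replicate 3, and the mRNA helicases in the lower part of the right panel are paler, with a median of 0.34 on supine replicate 1.

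RNA polymerase I subunits make up 8 of the members. Against controls, their median difference was 0.01 in prone and 0.85 in supine lungs, and all 8 stood higher in supine lungs. Polr1e, which forms a peripheral heterodimer of the enzyme with Polr1g, read 7.76 and 7.48 in the controls, 9.95, 8.71 and 7.88 in prone and 10.71, 8.35 and 10.41 in supine lungs. Every ventilated array lay above both controls. The difference was 1.23 ± 0.82 (SE) in prone and 2.20 ± 0.82 in supine lungs, with unadjusted p = 0.0292 and adjusted p = 0.293 for the latter (limma). Without prone replicate 1 the prone difference was 0.68. Its partner Polr1g read 6.69 and 6.39 in controls, 8.21, 6.56 and 5.16 in prone and 9.43, 6.63 and 8.23 in supine lungs, so prone replicate 3 lay below both controls and the groups overlapped. The largest subunit, Polr1a, and the second catalytic subunit, Polr1b, stood 1.13 ± 0.69 and 0.81 ± 0.51 above controls in supine lungs and -0.12 and -0.08 in prone lungs. Polr1d, shared with RNA polymerase III, stood 0.36 ± 0.26 above controls over all ventilated lungs, but a second probe set of the gene stood at -0.05 ± 0.28.

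The box C/D and box H/ACA snoRNP proteins were all higher in both positions, 5 of 5, with medians of 1.02 in prone and 1.67 in supine lungs. Nop56 and Nop58 are the core proteins that hold box C/D guide RNAs beside fibrillarin, the methyltransferase. Nop58 read 10.20 and 10.15 in controls, 11.86, 11.33 and 10.62 in prone and 12.14, 11.06 and 12.87 in supine lungs. Nop56 read 9.78 and 9.87, then 11.59, 10.77 and 10.19, then 11.92, 10.81 and 11.77. For both genes each ventilated array lay above both controls. Nop58 differed by 1.10 ± 0.57 in prone and 1.85 ± 0.57 in supine lungs (unadjusted p = 0.095 and 0.0132; adjusted p = 0.369 and 0.252, limma). Without supine replicate 3 the supine difference of Nop58 was 1.43.

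Fibrillarin itself was less uniform. Fbl read 11.22 and 11.07 in the controls, 12.83, 11.17 and 10.71 in prone and 12.94, 11.58 and 11.80 in supine lungs. Supine arrays were all above the controls, but prone replicate 3 was below them, and the prone difference of 0.42 ± 0.67 became -0.21 without prone replicate 1. Nolc1, a chaperone that links snoRNPs with the nucleolus, read 8.38 and 8.44 in controls, 10.31, 9.31 and 8.84 in prone and 10.60, 9.42 and 10.38 in supine lungs. Its groups did not overlap the controls, at 1.08 ± 0.52 (0.67 without prone replicate 1) and 1.72 ± 0.52, and a second probe set of the gene gave larger differences of 2.20 ± 0.41 and 2.42 ± 0.41. Nop10, of the box H/ACA particle, stood at 0.16 ± 0.40 and 0.23 ± 0.40.

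**Figure D3:**
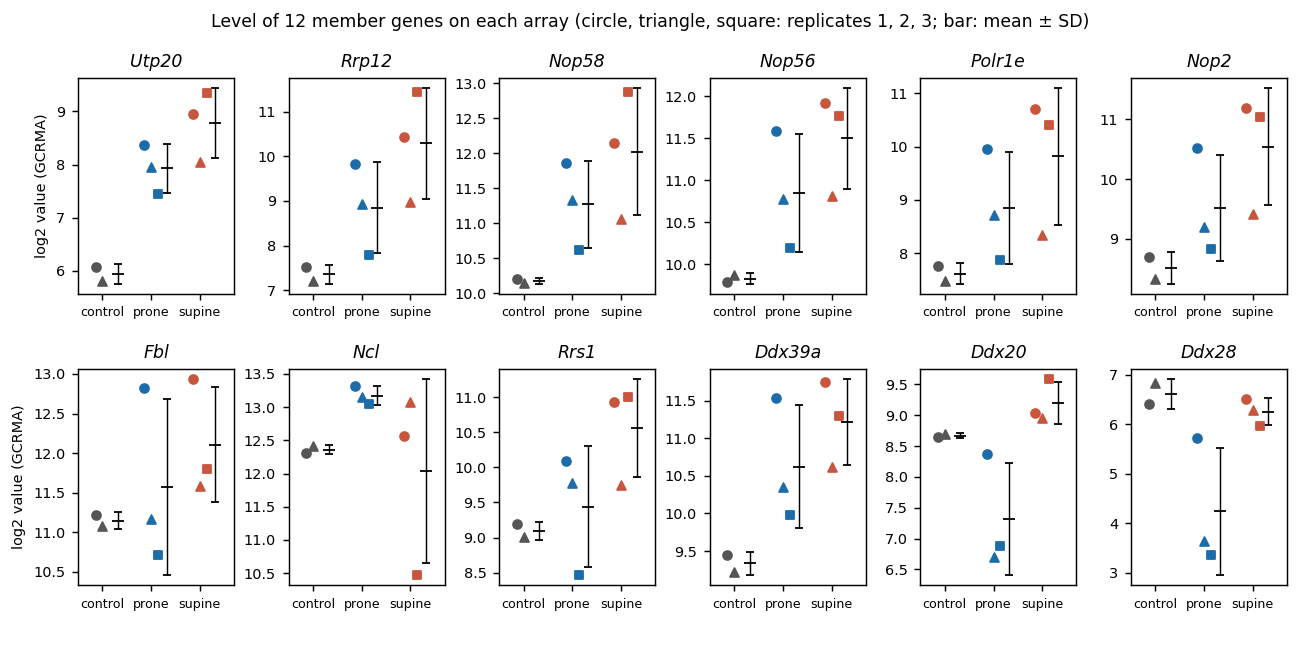
Log2 level (vertical axis, a separate scale for each gene) of 12 member genes in the control, prone and supine lungs; each point is an array, and bars are the mean ± SD of 2, 3 and 3 arrays. Utp20 ranges from 7.45 to 9.34 on the ventilated arrays against 5.81 and 6.08 in the controls, whereas Ddx20 lies below the controls on the prone arrays and above them on the supine arrays.

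Small subunit processing held 23 members, of which 22 were tested. In prone lungs 15 stood higher and 7 lower than controls (median 0.28), and in supine lungs 20 higher and 2 lower (median 0.80). Utp20, a long scaffold protein of the processome, read 6.08 and 5.81 in controls, 8.37, 7.95 and 7.45 in prone and 8.95, 8.05 and 9.34 in supine lungs. Its lowest ventilated array exceeded its highest control by more than 1 log2 unit. The difference was 1.98 ± 0.46 in prone lungs (unadjusted p = 0.00287, adjusted p = 0.114), 2.83 ± 0.46 in supine lungs (unadjusted p = 0.00033, adjusted p = 0.136) and 2.41 ± 0.41 over all ventilated lungs (limma). It passed in 2 of 18 alternatives of the last comparison. Without supine replicate 2 (adjusted p = 0.0345, limma), 2.25% of all probe sets passed as well. With array weights (adjusted p = 0.00313, limma), 27.8% did, so that pass says little about Utp20 alone.

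Rrp12, which takes part in the export of both subunits, read 7.51 and 7.20 in controls, 9.84, 8.94 and 7.79 in prone and 10.45, 8.97 and 11.45 in supine lungs. All ventilated arrays were above both controls, but prone replicate 3 only by a little. The difference was 1.497 ± 0.80 in prone and 2.93 ± 0.80 in supine lungs (adjusted p = 0.224, limma), or 2.35 without supine replicate 3. Its other 2 probe sets also stood higher in supine lungs, by 2.71 ± 0.63 for the brighter; the other read 3.96 and 4.52 in the controls, under log2 5, so its difference has no certain size. Utp25, another nucleolar processing factor, read 7.78 and 7.20 in controls, 9.47, 8.22 and 8.34 in prone and 9.48, 8.35 and 9.74 in supine lungs, with no overlap (1.19 ± 0.55 and 1.70 ± 0.55).

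Utp23 and Nol7 departed from this order. Utp23, needed for early cleavages of the small subunit precursor, read 6.35 and 6.75 in controls, 7.68, 8.67 and 8.43 in prone and 6.76, 6.55 and 6.38 in supine lungs. Only the prone arrays were high, at 1.71 ± 0.37 above controls (unadjusted p = 0.00196, adjusted p = 0.11, limma), while the supine difference was 0.01 ± 0.37. Nol7, a nucleolar protein, was lower on every ventilated array, with 11.45, 11.23 and 11.37 in prone and 11.47, 11.37 and 10.66 in supine lungs against 12.02 and 11.89 in controls. Its difference was -0.70 ± 0.29 over all ventilated lungs (unadjusted p = 0.0457, or 0.105 in the fit blocked on replicate number; adjusted p = 0.253, limma), or -0.57 without supine replicate 3.

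Large subunit processing held 21 members, all tested. In prone lungs 15 stood higher and 6 lower (median 0.20), and in supine lungs 19 higher and 2 lower (median 0.94). Nop2, a methyltransferase of the large ribosomal RNA, read 8.70 and 8.32 in controls, 10.52, 9.20 and 8.84 in prone and 11.18, 9.41 and 11.04 in supine lungs. Each ventilated array was above both controls, with a supine difference of 2.04 ± 0.68 (unadjusted p = 0.0181, adjusted p = 0.267, limma). Ddx27, a nucleolar helicase of the same pathway, read 6.81 and 6.91 in controls, 8.47, 7.54 and 7.72 in prone and 8.60, 7.52 and 8.34 in supine lungs with no overlap (1.05 ± 0.43 and 1.29 ± 0.43). A second probe set of Ddx27 stood at 0.51 ± 0.49 and 0.04 ± 0.49.

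Bop1, Rrs1 and Nip7 were near the controls in part of the prone lungs. Bop1, which with Pes1 and Wdr12 forms a complex needed for the large subunit, read 8.10 and 7.94 in controls, 9.82, 7.90 and 7.28 in prone and 10.24, 8.50 and 9.55 in supine lungs. Rrs1, which helps place the 5S particle, read 9.19 and 9.01, then 10.09, 9.77 and 8.46, then 10.93, 9.75 and 10.996. In both genes all supine arrays exceeded the controls and prone replicate 3 lay below them. The supine differences were 1.41 ± 0.79 for Bop1 and 1.46 ± 0.58 for Rrs1 (unadjusted p = 0.113 and 0.0372; 0.0367 for Bop1 in the blocked fit). Nip7, another assembly factor, read 9.70 and 9.80 in controls, 10.76, 9.55 and 8.9997 in prone and 11.20, 9.72 and 10.64 in supine lungs and overlapped the controls in both positions. The helicase Ddx31 stood at 1.53 ± 0.70 in supine and 0.06 ± 0.70 in prone lungs. Nop53, by contrast, stood at -0.69 ± 0.45 in supine lungs, where all 3 arrays were below the controls.

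Among the multifunctional nucleolar proteins, nucleolin (Ncl) binds the ribosomal RNA precursor and its chromatin. Ncl read 12.31 and 12.41 in controls, 13.32, 13.16 and 13.05 in prone and 12.57, 13.08 and 10.47 in supine lungs. Prone arrays were all high, while supine replicate 3, the array with the widest 3′ to 5′ gaps, was far below the controls. The supine difference of -0.32 ± 0.70 became 0.46 without that array. Ddx50 read 10.34 and 10.52 in controls, 11.23, 11.20 and 11.27 in prone and 11.09, 10.81 and 11.28 in supine lungs, and all 6 ventilated arrays were higher (0.71 ± 0.24, unadjusted p = 0.0201, or 0.0545 in the blocked fit; adjusted p = 0.188, limma). Its paralog Ddx21, a helicase of ribosomal RNA transcription and processing, stood at 0.25 ± 0.40 in prone and 1.13 ± 0.40 in supine lungs. A second probe set of Ddx21 stood at 0.95 ± 1.06 and 0.0034 ± 1.06. It read 4.15, 6.71 and 2.68 on the supine arrays, in part under log2 5, so its differences have no certain size.

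Helicases of splicing, export, decay and translation showed smaller and mixed differences. Of 14 tested, 7 stood higher and 7 lower in prone lungs (median 0.01), and 11 higher and 3 lower in supine lungs (median 0.41). Ddx39a, an mRNA export helicase, was the furthest above controls in supine lungs. It read 9.45 and 9.22 in controls, 11.54, 10.35 and 9.98 in prone and 11.75, 10.61 and 11.29 in supine lungs, with no overlap (1.29 ± 0.53 and 1.88 ± 0.53; unadjusted p = 0.0438 and 0.00847, adjusted p = 0.268 and 0.23, limma). Its prone difference was 0.83 without prone replicate 1. The helicases Ddx5, Ddx3x and Ddx1 differed from controls by 0.06 to 0.37 in the 2 positions, and Ddx39b, the paralog of Ddx39a, by 0.22 in prone and 0.67 in supine lungs. Ddx17, a paralog of Ddx5, stood 1.53 ± 0.50 above controls in prone lungs, while its second probe set stood at -0.99 ± 0.47. That probe set read under log2 5 on all prone arrays, so this difference has no certain size.

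Ddx20 and Ddx28 separated the positions. Ddx20, a component of the SMN complex that assembles spliceosomal particles, read 8.64 and 8.69 in controls, 8.37, 6.71 and 6.88 in prone and 9.03, 8.96 and 9.59 in supine lungs. Prone arrays were all below and supine arrays all above the controls. Supine exceeded prone lungs by 1.87 ± 0.47 (unadjusted p = 0.00433, adjusted p = 0.942, limma). Ddx28, which helps assemble mitochondrial ribosomes, read 6.40 and 6.83 in controls, 5.72, 3.64 and 3.36 in prone and 6.51, 6.28 and 5.97 in supine lungs. It was -2.37 ± 0.67 in prone lungs against controls (unadjusted p = 0.00858, adjusted p = 0.152), and its 2 lowest prone values lie under log2 5, where the size of a difference is uncertain.

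The other members have different roles. Ddx60, an interferon-induced helicase, stood at -0.69 ± 0.72 in prone and -0.32 ± 0.72 in supine lungs, with overlapping groups. Nol3, an inhibitor of apoptosis that shares only the name pattern, stood at -1.27 ± 0.65 in supine lungs, or -0.67 without supine replicate 3. Nol4l stood at -0.87 ± 0.44 in prone lungs. The pseudogene Ddx3x-ps1 read 6.10 and 6.60 in controls, 8.22, 8.16 and 8.19 in prone and 7.99, 7.07 and 8.06 in supine lungs and did not overlap the controls (1.84 ± 0.38 and 1.36 ± 0.38; adjusted p = 0.107 and 0.23, limma). Its probes may also read transcripts of Ddx3x, whose own probe set stood at 0.09 ± 0.28 and 0.37 ± 0.28.

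Counted over the whole group, 50 of 78 members stood higher and 28 lower in prone lungs than in controls, with a median of 0.15 against -0.12 over all probe sets. At an unadjusted p under 0.05, 7 members were higher and 2 lower (Ddx20 and Ddx28), where 7.67% and 10.02% of all probe sets were; 22 were above the controls with no overlap (20.9% of all probe sets) and 7 below (27.7%). The share of 7 in 78 higher is near the background. With each array centred on its median, 59 of 78 stood higher and the median over all probe sets moved from -0.12 to 0.03. Prone replicate 1 held much of the difference, since without it 33 of 78 stood higher and the median was -0.08.

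Supine lungs stood further from controls. There 66 of 78 members were higher and 12 lower, with a median of 0.67 against -0.07 over all probe sets. At an unadjusted p under 0.05, 15 were higher, where 7.18% of all probe sets were, and 1 was lower (Nol7), where 8.05% were. Without overlap, 40 were above the controls (20.0% of all probe sets) and 4 below (21.8%). The 15 became 25 with the replicate number as a block in the fit, when 8.10% of probe sets were higher. They became 9 without supine replicate 3 (4.71% of probe sets), 9 without supine replicate 1 (7.21%), 29 without supine replicate 2 (10.1%) and 24 without prone replicate 1 (8.50%). Without control replicate 1 or 2 they were 5 (2.73%) and 6 (2.27%). The median stayed at 0.67 without supine replicate 3 and lay between 0.53 and 0.95 over all single arrays left out.

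With both positions joined, the 6 ventilated lungs gave 61 members higher and 17 lower than the 2 controls, with a median of 0.45 against -0.10 over all probe sets. At an unadjusted p under 0.05, 14 were higher (8.53% of all probe sets) and 1 lower (10.6%). Without overlap, 15 members were above both controls on all 6 arrays, where 12.9% of probe sets were, and 1, Nol7, was below on all 6, where 16.7% were. Of those 15, 5 belong to small subunit processing, 3 to large subunit processing and 3 to the snoRNP proteins. The count of 14 was 4 without control replicate 1 (3.31% of probe sets) and 2 without control replicate 2 (3.07%), a share near the background.

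**Figure D4:**
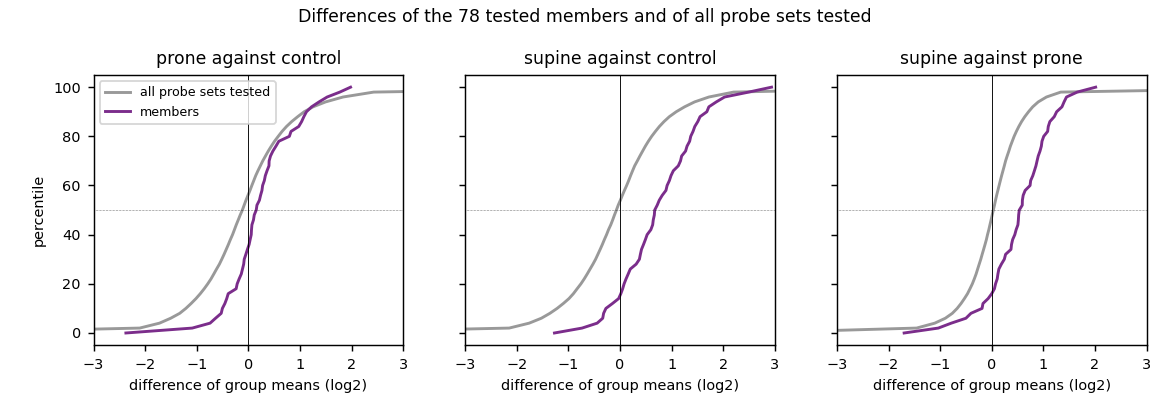
Percentile (vertical axis) of the difference of group means in log2 (horizontal axis) for the 78 tested members and for all 16896 probe sets tested, in the 3 comparisons between groups. The curve of the members is shifted to the right at its median by the most in supine lungs against controls, with medians of 0.67 and -0.07.

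Supine lungs were compared with prone lungs directly, in a contrast whose difference of means uses no control array. Its standard errors and p-values rest on the spread within all 3 groups, the controls included. Of 78 members 65 stood higher in supine lungs and 13 lower, with a median of 0.53 against 0.03 over all probe sets. At an unadjusted p under 0.05, 5 were higher (2.60% of all probe sets) and 1 lower (1.49%); the groups did not overlap for 4 higher (3.78%) and 3 lower (2.11%). The smallest adjusted p of a member was 0.942 (limma). With the replicate number as a block the counts were 11 higher and 2 lower, where 4.65% and 2.79% of probe sets were. Within replicate numbers 1, 2 and 3 the median of supine minus prone was 0.32, 0.17 and 1.23 over the members, against 0.03, 0.13 and -0.01 over all probe sets. Members higher in supine than in prone lungs within all 3 replicate numbers came to 44 (56.4%, against 19.7% of all probe sets). Within all 3, 5 were lower (6.41%, against 12.2%). The titles do not state that rats of the same number were paired, and number 3 holds supine replicate 3, the array with the widest 3′ to 5′ gaps.

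The members furthest higher in supine lungs without overlap were Ddx28 (2.01 ± 0.60, unadjusted p = 0.0111), Ddx20, and Ddx19b, an mRNA export helicase at the nuclear pore (1.10 ± 0.35, unadjusted p = 0.0152). Ddx42, a splicing helicase, stood at 0.52 ± 0.23. Utp23 was the member furthest lower (-1.70 ± 0.33, unadjusted p = 0.00106, adjusted p = 0.942, limma), followed by Ddx3x-ps1 (-0.48 ± 0.34) and the splicing helicase Ddx23 (-0.19 ± 0.23). For Ddx19b a second probe set stood at -0.02 ± 0.44. For Ddx21 the chosen probe set stood at 0.88 ± 0.35 and the second, in part under log2 5, at -0.95 ± 0.95. Among members the rule spells out, Rrs1 stood at 1.12 ± 0.52, Bop1 at 1.09 ± 0.70, Nip7 at 0.75 ± 0.54, Fbl at 0.54 ± 0.60 and Ncl at -1.13 ± 0.63. These values moved with single arrays: the smallest were 0.63 for Rrs1, 0.57 for Bop1, 0.37 for Nip7 and 0.11 for Fbl, all without prone replicate 3, and -0.35 for Ncl without supine replicate 3. Leaving out supine replicate 1 gave 0.69 for Bop1, 0.41 for Nip7 and 0.12 for Fbl, and leaving out prone replicate 1 gave 1.84, 1.24 and 1.16. Fbl was 0.34 without prone replicate 2, and Nip7 was 1.15 without supine replicate 2. The 5 higher at an unadjusted p under 0.05 were Ddx28, Ddx20, Ddx19b, Ddx21 and Nol11, the last of which was named after its values were seen, and the 1 lower was Utp23. The count of 5 became 32 without prone replicate 1 (9.04% of probe sets), 21 without supine replicate 2 (4.48%), 2 without prone replicate 3 (0.923%), 3 without prone replicate 2 (1.07%) and 3 without supine replicate 3 (2.40%).

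Genes of the same pathway that the symbol rule did not take were read for comparison. Of 72 other biogenesis factors, 51 stood higher and 21 lower in prone lungs (median 0.33), and 62 higher and 10 lower in supine lungs (median 0.83). At an unadjusted p under 0.05, 7 were higher and 1 lower in prone lungs, near the 7.67% of all probe sets for higher calls, and 21 higher and 0 lower in supine lungs (7.18% and 8.05% of all probe sets); no gene of the list passed after adjustment (smallest adjusted p = 0.132 and 0.182). Their array medians of 0.95, 0.22 and -0.0011 on prone and 1.28, 0.22 and 1.22 on supine replicates 1 to 3 followed the order seen in the members. Wdr43, of the complex that couples transcription with early processing, read 6.33 and 7.14 in controls, 9.70, 9.24 and 8.49 in prone and 9.98, 8.35 and 10.11 in supine lungs. The pseudouridine synthase Dkc1 stood at 1.24 ± 0.31 and the large ATPase Mdn1 at 1.93 ± 0.40 in all ventilated lungs against controls.

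Upstream genes included Myc, which read 9.56 and 9.27 in controls, 12.47, 11.48 and 10.79 in prone and 12.02, 10.31 and 12.37 in supine lungs. All ventilated arrays lay above both controls, and prone replicate 1 and supine replicates 1 and 3 were again the highest. The difference was 2.17 ± 0.70 in prone and 2.16 ± 0.70 in supine lungs (unadjusted p = 0.0159 and 0.0163; adjusted p = 0.187 and 0.261, limma). Supine minus prone was -0.01 ± 0.63 for Myc, where the median over the members was 0.53. On prone replicates 2 and 3, where Myc was above both controls, the median of the members lay at -0.01 and -0.07. The part of Myc in the differences of the members was not tested. Mxd1, which competes with MYC for its partner MAX, stood at 2.19 ± 0.53 and 1.40 ± 0.53. Taf1c, a subunit of the RNA polymerase I selectivity factor, stood at 2.08 ± 0.80 and 2.96 ± 0.80. Of the 15 genes of this list 4 were higher and 0 lower at an unadjusted p under 0.05 in each position. Over all probe sets 7.67% were higher and 10.02% lower in prone lungs, and 7.18% and 8.05% in supine lungs.

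DEAH-box and eIF4A helicases, which are relatives outside the rule, lay closer to controls. Over 19 genes the median was 0.07 in prone and 0.29 in supine lungs. At an unadjusted p under 0.05, 1 was higher and 0 lower in prone, and 1 higher and 1 lower in supine lungs. The share higher was 5.26% in each position, below the 7.67% and 7.18% of all probe sets. The share lower in supine lungs was 5.26%, below 8.05%. Dhx30 stood at 0.74 ± 0.24, Dhx32 at -1.88 ± 0.81 and Dhx40 at -0.74 ± 0.41 over all ventilated lungs. The 40 ribosomal protein genes, the products that these factors assemble, had medians of -0.15 in prone and -0.26 in supine lungs, against -0.12 and -0.07 over all probe sets. In prone lungs 32 of 40 and in supine lungs 36 of 40 stood lower, where 9543 and 9085 of all 16896 probe sets did. At an unadjusted p under 0.05, 1 was higher and 0 lower in prone, and 2 higher and 1 lower in supine lungs, beside the shares of all probe sets given above.

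Promoter sequences were searched for CACGTG, the E-box to which MYC binds with MAX. The motif is its own reverse complement, so both strands were covered. RefSeq entries of the GRCr8 assembly, 250 bases before to 50 after the start site, matched 72 of the 80 members with 79 promoters, and 17 of these (21.5%) held the motif. It was in 9.30% of 9490 promoters of genes tested here and in 6.42% of all 33469 promoters of the table. Median GC content was 57.3%, 60.7% and 51.7% in these 3 sets. By role, the motif was in 8 of 21 promoters for small subunit processing, 5 of 19 for large subunit processing, 1 of 9 for RNA polymerase I and 1 of 15 for the mRNA helicases. A match is a description of letters and does not show binding.

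Of the 32 members named by rule, 27 had an entry and 6 held CACGTG. Windows of 30 bases around it are given because they place the motif beside the genes described above, 5 that stood higher and 1, Ddx28, that stood lower in prone lungs. Capitals mark the motif, and every line reads 5′ to 3′ on the strand of the gene.
Utp20 (chr7:25102959-25102988, minus strand): cagcactagctaCACGTGagaaaaagcaga
Rrp12 (chr1:250655298-250655327, minus strand): gctgagaatacaCACGTGggttctgctgtg
Utp25 (chr13:107180334-107180363, minus strand): agccggcgtaccCACGTGcgacaacttccc
Nop2 (chr4:159618986-159619015, plus strand): tgaactcttccccaagtgCACGTGgagcgg
Fbl (chr1:92597416-92597445, plus strand): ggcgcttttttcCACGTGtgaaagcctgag
Ddx28 (chr19:50821639-50821668, minus strand): actgcagagccaCACGTGacactgatctgc

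Counted from the start site, the motif began at base -127 in Utp20 and -83 in Ddx28, before the start. In Rrp12, Utp25, Fbl and Nop2 it began at base 4, 11, 22 and 39, inside the transcript. Since Utp20 was the member nearest to the threshold, its 250 bases before the start site are printed whole (chr7:25102850-25103099, minus strand of GRCr8), with the motif in capitals.
Utp20 upstream: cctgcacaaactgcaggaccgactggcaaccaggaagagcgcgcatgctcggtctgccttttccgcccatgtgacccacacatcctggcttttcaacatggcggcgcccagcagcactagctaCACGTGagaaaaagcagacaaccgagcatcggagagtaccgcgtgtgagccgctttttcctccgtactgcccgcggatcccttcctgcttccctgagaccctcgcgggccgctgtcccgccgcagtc
Nop56, Nop58, Nolc1 and Polr1e, which stood above controls on all ventilated arrays, had an entry without these letters in the window.

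Markers of other cells moved with the same comparisons. The 9 neutrophil markers on the table had a mean level of 6.64 and 6.94 on the control arrays, 8.10 to 10.7 on the prone and 8.15 to 10.1 on the supine arrays; 7 of 8 tested were higher in each position, and Ncf1 was under log2 5 on every array. Markers of dividing cells, in which ribosome production is high, had a mean level of 5.35 and 5.38 in controls, 5.92 to 6.43 in prone and 6.38 to 7.27 in supine lungs. All 7 tested were higher in each position, with 3 and 4 at an unadjusted p under 0.05 (7.67% and 7.18% of all probe sets), while Ccnb1 and Cdc20 were under log2 5 on every array. The median shift of the dividing cell markers was 0.69, 1.22 and 0.96 on prone and 0.86, 1.93 and 1.38 on supine replicates 1 to 3, so supine replicate 2 was the highest supine array there and the lowest supine array in the members. The 12 lymphocyte markers were at 8.10 and 9.48 in controls, 4.99 to 6.999 in prone and 6.83 to 8.07 in supine lungs, with 12 and 11 of 12 lower. Mesothelial markers, 6 on the table, had a mean level of 9.29 and 9.36 in controls, 6.04 to 7.63 in prone and 5.48 to 6.49 in supine lungs. Alveolar type 1 markers stood lower for 6 of 7 genes in each position, with medians of -0.83 in prone and -0.85 in supine lungs, and endothelial markers for 7 of 7, with medians of -0.57 and -0.65. The type 1 array medians were -1.11, -0.81 and -0.56 on prone and -1.0026, -0.57 and -1.195 on supine replicates 1 to 3. The endothelial ones were -1.275, -0.25 and -0.18, then -0.806, -0.2005 and -0.804. Both lists were lowest on prone replicate 1 and supine replicates 1 and 3, where the members were high. In no other marker list were these 3 arrays the 3 lowest or the 3 highest. Of 7 macrophage and monocyte markers tested, 5 stood lower in prone and 3 in supine lungs. The part of these cells in the differences above was not tested.

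Of the 80 members, 21 had more than 1 probe set, and 21 further probe sets were tested. Their sign opposed that of the chosen probe set in 7 of 21 cases in prone and 3 of 21 in supine lungs against controls, and in 6 of 21 for supine against prone. The disagreements in prone lungs included Utp6, whose chosen probe set stood at -0.22 ± 0.33 and whose second stood at 1.56 ± 0.35. For Utp15 both probe sets stood higher in prone lungs, the chosen one by 0.43 ± 0.39, while the other read 3.68 and 4.43 in the controls, under log2 5, so its difference has no certain size.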

How the data were processed

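The authors deposited 1 table of log2 values for 20242 probe sets on 8 one-colour Affymetrix arrays, labelled from 300 ng of total RNA. Per the submitters' processing notes, GCRMA and Partek 6.5 were used; GCRMA corrects background, normalizes arrays to common quantiles and summarises probe sets, so shifts shared by most genes are removed. Further filters or centring are not stated in the sources used. Without detection calls, a low value cannot be told from background.

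Groups came from the titles. The 28 control probe sets were set aside, and the 16896 probe sets that reached log2 5 on 2 or more arrays were fitted with 1 mean per group over all 8 arrays in limma 3.58.1 (R 4.3.3; 5 residual and 2.51 prior degrees of freedom), two-sided, with Benjamini-Hochberg adjustment within each comparison. The fit was tested on simulated data. Errors after ± are standard errors of the model unless SD is stated. Titles call the samples biological replicates, and p-values measure only the spread between these samples; 8 arrays limit the precision. Symbols came from the platform annotation; all 80 members matched RefSeq gene identifiers, with 0 symbols changed.

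Replicate numbers were checked as pairs. Deviations from the group means correlated at 0.72, 0.29 and 0.20 between prone and supine arrays numbered 1, 2 and 3; prone 3 correlated more with supine 2 (0.40) than with its own number. All 3 pairs were above 0.1, so a fit with the number as a block was set beside the main one. Arrays of unlike number also passed 0.1, such as prone 2 with supine 3 (0.19). The titles give only a replicate number within each group. The check therefore cannot show that the numbers pair the rats, and the blocked fit is only an alternative. Named genes are the 10 largest rises and 5 largest falls without overlap against controls (5 and 5 between positions), genes the member rule spells out, and up to 2 per role and 3 per pathway list by smallest p in ventilated lungs, with Myc. The members and lists were chosen with earlier results of these data known, and the ribosomal protein list was added after seeing the data. Other scalings, filters, moderation, probe set choice, array weights and each array left out were tried. Protein sequences were not used here.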

Additional observations from a re-analysis of the deposited data

Results flagged for a closer look

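Ddx20 was picked out because every prone array lay below and every supine array above both controls. Supine minus prone was 1.87 ± 0.47 on the log2 scale (unadjusted p = 0.00433, adjusted p = 0.942, limma).

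The control probe set for 5S ribosomal RNA, an RNA that none of the comparisons used, read above both controls on 3 ventilated arrays. It stood at 10.4 on prone replicate 2, 9.88 on prone replicate 3 and 8.75 on supine replicate 3, against 5.13 and 7.51 in the controls. On prone replicate 1 and supine replicates 1 and 2 it read 4.41, 5.23 and 5.17.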

How the results depend on the processing

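The median of the members stayed above 0 in supine against control, supine against prone and ventilated against control lungs under all 18 alternatives, with ranges of 0.53 to 0.95, 0.34 to 0.89 and 0.28 to 0.59 when single arrays were left out. The prone median ran from -0.08 to 0.38 and was -0.0045 with array weights. Leaving out a control leaves 1 array, assumed to vary like the other groups.

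With 1 ventilated array left out, members past adjusted p 0.05 numbered 0 to 1 in prone and 0 to 1 in supine lungs against controls. They numbered 0 to 2 in all ventilated lungs and 0 in supine against prone. The 1 in prone lungs came without prone replicate 1, where 0.681% of all probe sets passed. The others came without supine replicate 2, where 0.906% passed in supine and 2.25% in ventilated lungs. The 2 in ventilated lungs are thus near the background. Higher members at an unadjusted p under 0.05 numbered 5 to 9 in prone, 9 to 29 in supine, 10 to 19 in ventilated lungs and 2 to 32 in supine against prone. Over all probe sets the shares higher ran from 5.44% to 8.93%, 4.71% to 10.1%, 7.17% to 10.3% and 0.923% to 9.04%. Lower members numbered 1 to 4, 0 to 2, 0 to 2 and 1 to 3. The shares lower ran from 7.17% to 12.4%, 5.40% to 13.7%, 8.81% to 13.9% and 0.616% to 5.16%.

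With array weights, members past adjusted p numbered 17 in prone, 1 in supine and 17 in ventilated lungs, while 33.9%, 0.213% and 27.8% of all probe sets passed. Unadjusted and with the same weights, 14, 26, 23 and 18 members were higher (18.7%, 10.2%, 18.1% and 6.09% of all probe sets) and 12 (27.1% of all probe sets), 1, 3 and 2 lower, in the order prone, supine, ventilated and supine against prone; the 14 in prone lungs are below the background. With the replicate block 25 were higher (8.10% of all probe sets) and 0 lower (8.79%) in supine against control lungs. In supine against prone 11 were higher (4.65%) and 2 lower (2.79%), and in ventilated lungs 0 were lower (10.8%). In prone lungs the block gave 3 lower in place of 2 (10.4% of all probe sets), left 7 higher (8.07%) and raised the unadjusted p of Ddx50 above 0.05. The 7 are near the background. No member passed adjusted p 0.05 with or without the block. Over all probe sets, the 9, 9 and 24 that passed in prone, supine and ventilated lungs against controls became 0 with the block. Lower members numbered 1 in prone lungs with centred arrays (7.77% of all probe sets) or a log2 7 filter (9.74%). They numbered 0 in supine and ventilated lungs with centred arrays (7.10% and 8.62%) or quantile normalization (7.54% and 9.33%). With only the compared groups fitted they numbered 0 in supine lungs (6.95%). In supine against prone they numbered 2 with centring (1.88%) or quantiles (1.74%). The causes were not tested.

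Of 76 results for named genes, 11 of 1365 values changed sign. With array weights Fbl, Bop1 and Nip7 in prone lungs stood at -0.0004, -0.17 and -0.29; with single arrays left out they ran from -0.21 to 0.85, -0.43 to 0.84 and -0.47 to 0.41. Ncl in supine lungs was 0.10 with the block and ran from -0.84 to 0.46 with arrays left out, and in ventilated lungs from -0.014 to 0.64. Ddx17 in ventilated lungs was -0.038 as the mean of its probe sets.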
